A study of Arabidopsis thaliana with 24 samples.

Results

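The nuclear genes that encode the light-reaction machinery of photosynthesis were followed in root tips of Arabidopsis seedlings. They were the 51 genes, of 24497 in the deposited table, whose locus identifiers belong to the light-harvesting antennae, the nuclear subunits of photosystem I and photosystem II, plastocyanin, ferredoxin, ferredoxin-NADP reductase, the Rieske protein and the chloroplast ATP synthase. By role they were 14 genes of the photosystem II antenna (LHCB), 6 of the photosystem I antenna (LHCA), 12 photosystem I subunits, 6 genes of the oxygen-evolving complex, 5 other photosystem II subunits, 6 electron carriers and 2 ATP synthase subunits. Of these, 49 had enough counts to be tested and 2, LHCB1.4 and LHCA6, did not.

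The antennae are chlorophyll-binding membrane proteins that pass light energy to the reaction centres. Photosystem II splits water at the oxygen-evolving complex, plastocyanin and ferredoxin carry electrons to and from photosystem I, and the ATP synthase uses the proton gradient that results. Most of these proteins are made in the cytosol from nuclear genes and imported into plastids, while the reaction-centre cores are made inside the plastid. Roots hold mainly non-green plastids, and nuclear photosynthesis genes are known to answer to plastid-to-nucleus (retrograde) signals, in which GUN1, a plastid pentatricopeptide-repeat protein, takes part.

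Root tips of about 0.5 cm were cut from seedlings grown for about 5 days on solid 1/2 MS medium with 1% sucrose, under 16 h of light and 8 h of dark. Seedlings were then kept on control medium or moved to 10 mg/L spectinomycin, an inhibitor of plastid translation, for a time the labels give as 16 h in 1 place and 24 h in another. The 4 genotypes were wild type (WT, Col), gun1-101, a mutant allele of GUN1, nac103-11, a mutant allele of the NAC transcription factor NAC103, and NAC103-OX, which carries NAC103-GFP behind the broadly active 35S promoter. Each genotype on each medium gave 3 libraries of poly(A) RNA, labelled as biological replicates, so that 24 libraries fell into 8 groups. The labels do not say whether gun1-101, nac103-11 or NAC103-OX is 1 line or several, and p-values measure the spread between these libraries.

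The libraries held 13012580 to 17411876 counts each. GUN1 stood at 150, 150 and 144 CPM (TMM-scaled counts, a level within 1 gene) in the WT control libraries and at 82.0, 81.6 and 93.8 CPM in those of gun1-101, where its transcript was lower but present. NAC103 stood at 0.733, 0.917 and 0.641 CPM in WT and 17.9, 16.6 and 17.6 CPM in NAC103-OX on control medium. In nac103-11 it was 0.533, 0.541 and 0.777 CPM without spectinomycin, where the difference from WT was not called, and 0.129, 0 and 0.113 CPM on spectinomycin. The 14 root tissue markers were each tested and summed to 299 to 394 CPM per library. The batch entry of the labels has 1 value per group, so that batch and group cannot be told apart.

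Among the WT controls, replicate 2 differed from its partners, and light-reaction genes took part in this. Summed over them, replicates 1 and 3 held 995 and 997 CPM and replicate 2 held 1522 CPM. Replicate 2 lay above both other libraries for 46 of the 49 genes tested (93.9%), against 39.3% of all genes tested, and below both for none. The ratio of replicate 2 to the mean of replicates 1 and 3 had a median of 1.51 and ran from 0.860 for LHCB2.3 to 5.93 for LHCB2.2. Of the genes above 10 CPM the ratio was highest for LHCB1.3, with 40.6, 130 and 39.3 CPM in the 3 replicates. Counts of called light-reaction genes that rest on the WT control group are therefore given with and without replicate 2, while counts of libraries that do not overlap include it.

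Other gene lists moved in that library too. The 20 Calvin cycle genes, which serve carbon fixation, had a median ratio of 1.81, and 16 of the 20 lay above both other libraries. Of 15 shoot tissue markers 13 were in the table and 4 had enough counts to be tested. The markers summed to 13.8, 19.5 and 12.1 CPM in WT control replicates 1, 2 and 3, to 15.6 to 16.9 CPM for gun1-101, 10.9 to 12.1 CPM for nac103-11 and 8.95 to 10.3 CPM for NAC103-OX on control medium, and to 11.4 to 15.1 (WT), 11.45 to 13.6 (gun1-101), 8.98 to 11.6 (nac103-11) and 8.85 to 11.3 CPM (NAC103-OX) on spectinomycin. Of the 4 tested, all epidermal genes, CER1, PDF1, KCS6 and ATML1 had ratios of 0.894, 1.199, 2.37 and 2.81 in replicate 2. The guard-cell and leaf genes FAMA, SPCH, KAT1 and YAB1 and the shoot meristem gene STM were at 0 in all 3 WT control libraries. Root markers moved the other way, with 388, 311 and 394 CPM in replicates 1, 2 and 3. What part shoot or epidermal tissue had in the level of replicate 2 was not tested. In whole root tips, fewer cells of a type and less RNA per cell cannot be told apart.

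**Figure D1:**
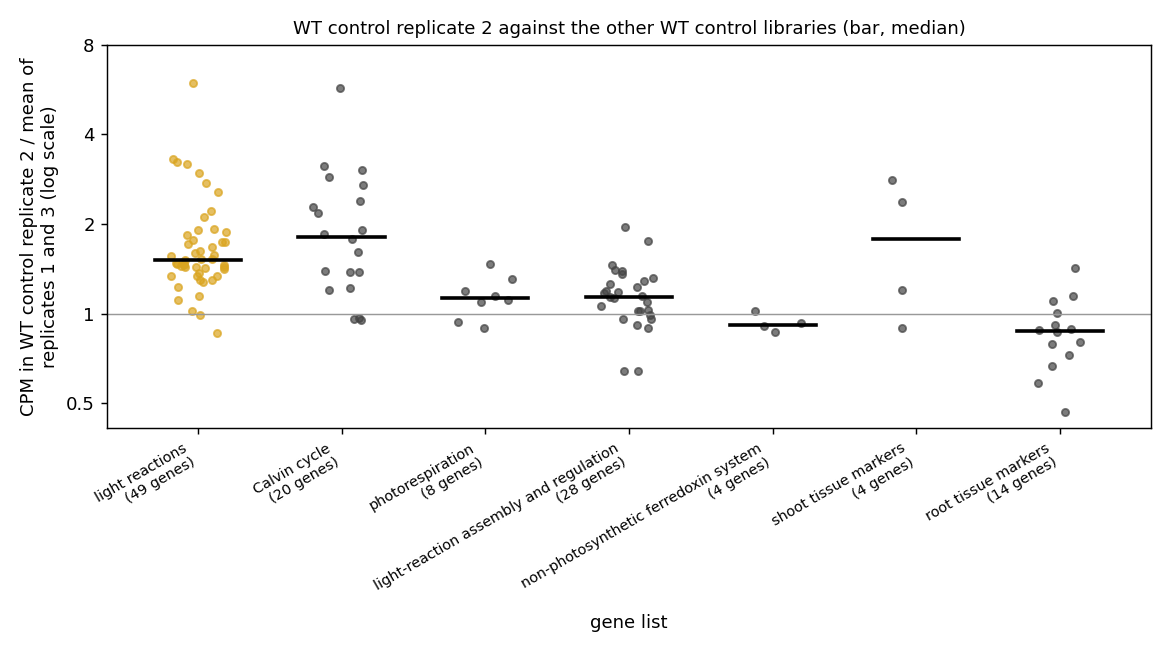
Ratio of the CPM in WT control replicate 2 to the mean of replicates 1 and 3, on a log scale, for each tested gene (point) of the light reactions and 6 other lists, with the median as a bar. The light-reaction genes have a median of 1.51, while the root tissue markers have a median of 0.875.

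Light-reaction transcripts were present in every root-tip library, as a small share of the total. Their summed TPM (a level per transcript length, deposited by the authors) was 0.146% of the total in WT control replicates 1 and 3, 0.225% in replicate 2 and 0.294% to 0.300% in the WT spectinomycin libraries. The median of the light-reaction genes was 19.6, 28.3 and 22.0 TPM in WT control replicates 1, 2 and 3. That of all genes was 16.2, 16.5 and 16.1 TPM in the same libraries. Levels among the genes spanned several orders of magnitude. In WT controls LHCB1.5 had the highest level, at 177 ± 41.8 TPM (SD, n = 3), and in the mean of replicates 1 and 3 it was followed by FD2, the leaf-type ferredoxin, and LHCA4. LHCA6 was at 0 in the 3 WT control libraries, in which 0 counts over the group allow up to 3 counts.

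Summed over the 51 genes, WT control and nac103-11 control were the low groups. WT control had 995, 1522 and 997 CPM and nac103-11 control 1208, 1207 and 1187 CPM. NAC103-OX control had 1938, 1855 and 1905 CPM and gun1-101 control 1725, 1726 and 1667 CPM, above every WT control library. By deposited TPM this did not hold for gun1-101 control, with sums of 2238, 2246 and 2205 against 2246 in WT control replicate 2. On spectinomycin the sums were 1926, 1929 and 1929 CPM in WT, 2030, 2004 and 2006 CPM in gun1-101, 1629, 1631 and 1551 CPM in nac103-11 and 1745, 1741 and 1741 CPM in NAC103-OX. By CPM the groups in rising order were WT control, nac103-11 control, nac103-11 spectinomycin, gun1-101 control, NAC103-OX spectinomycin, NAC103-OX control, WT spectinomycin and gun1-101 spectinomycin. Of the neighbours in that order, WT control and nac103-11 control, and NAC103-OX control and WT spectinomycin, overlapped in their libraries. With replicate 2 left out, WT control was the lowest of the 8 groups by mean CPM for 34 of the 49 genes tested (69.4%), against 14.3% of all genes tested. With it kept, WT control was lowest for 20 (40.8%, against 10.5% of all genes) and nac103-11 control for 25 (51%, against 21.6%). The group with the highest mean CPM was gun1-101 spectinomycin for 23 of the 49 (46.9%, against 9.57% of all genes) and NAC103-OX control for 11 (22.4%, against 15.5%), with all libraries kept. The order of the groups depended on scaling. By deposited TPM the sums were 2697 to 2743 in gun1-101 spectinomycin, below 2758 to 2861 in NAC103-OX control and 2938 to 3004 in WT spectinomycin.

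**Figure D2:**
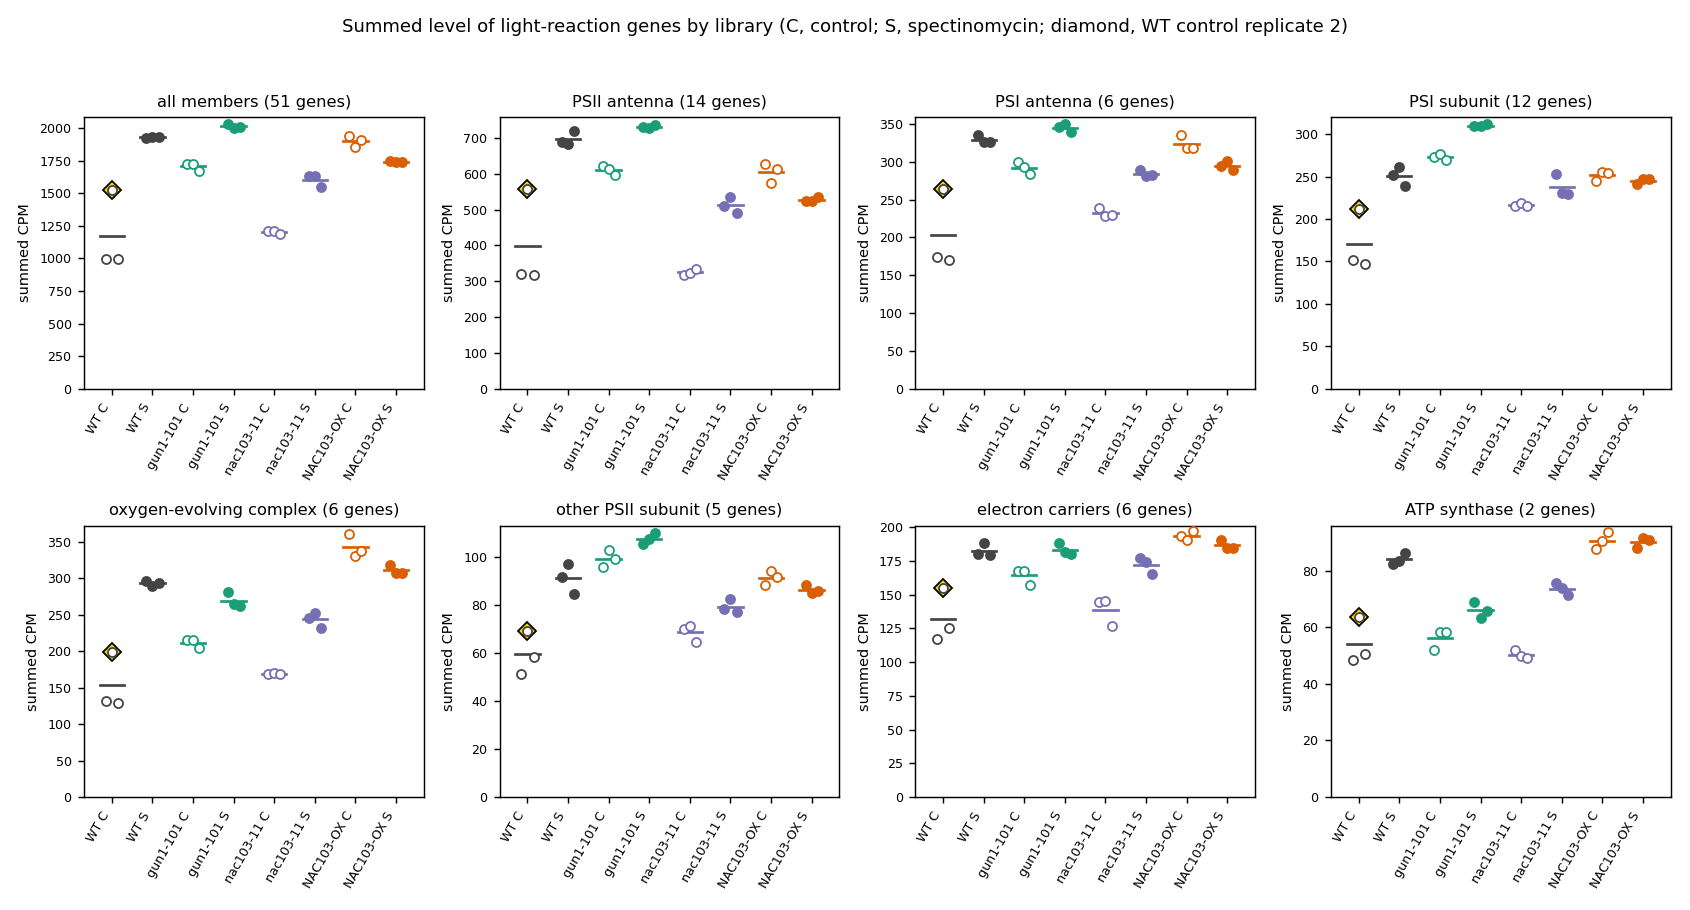
Summed CPM of the 51 genes and of each role in the 24 libraries, with open points for control medium (C), filled points for spectinomycin (S), a bar for the mean of 3 libraries and a gold diamond for WT control replicate 2. The WT sums lie between 1926 and 1929 CPM on spectinomycin, above 995, 1522 and 997 CPM on control medium, while the NAC103-OX sums lie between 1741 and 1745 CPM on spectinomycin and between 1855 and 1938 CPM on control medium.

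In WT, spectinomycin raised light-reaction transcripts across every role. A gene is said to rise, fall or be called where edgeR's quasi-likelihood test gave a Benjamini-Hochberg adjusted p under 0.05 over the 19567 genes tested. Of the 49 genes 43 rose, LHCB2.3 fell and 5 were not called, while 20.1% of all genes tested rose and 20.4% fell. The median log2 fold change of the 49 was 0.67, against 0.03 for all genes tested. Without WT control replicate 2, 48 rose and 1 fell, with a median of 0.97, against 20.6% and 20.8% of all genes. With only the WT groups in the fit 27 rose and 1 fell, for which no share of all genes is given. Of the 14 root tissue markers 2 rose and 3 fell, or 2 and 6 without replicate 2, and their part in the result was not tested. In 39 of the 49 genes every spectinomycin library lay above every control library, which held for 23.7% of all genes, and in LHCB2.3 every one lay below, which held for 22.1%. The genes not called with all libraries were LHCB4.3, PSAD2, PSBTN, PETE1 and PETC, each with a positive value of 0.21 to 0.60.

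**Figure D3:**
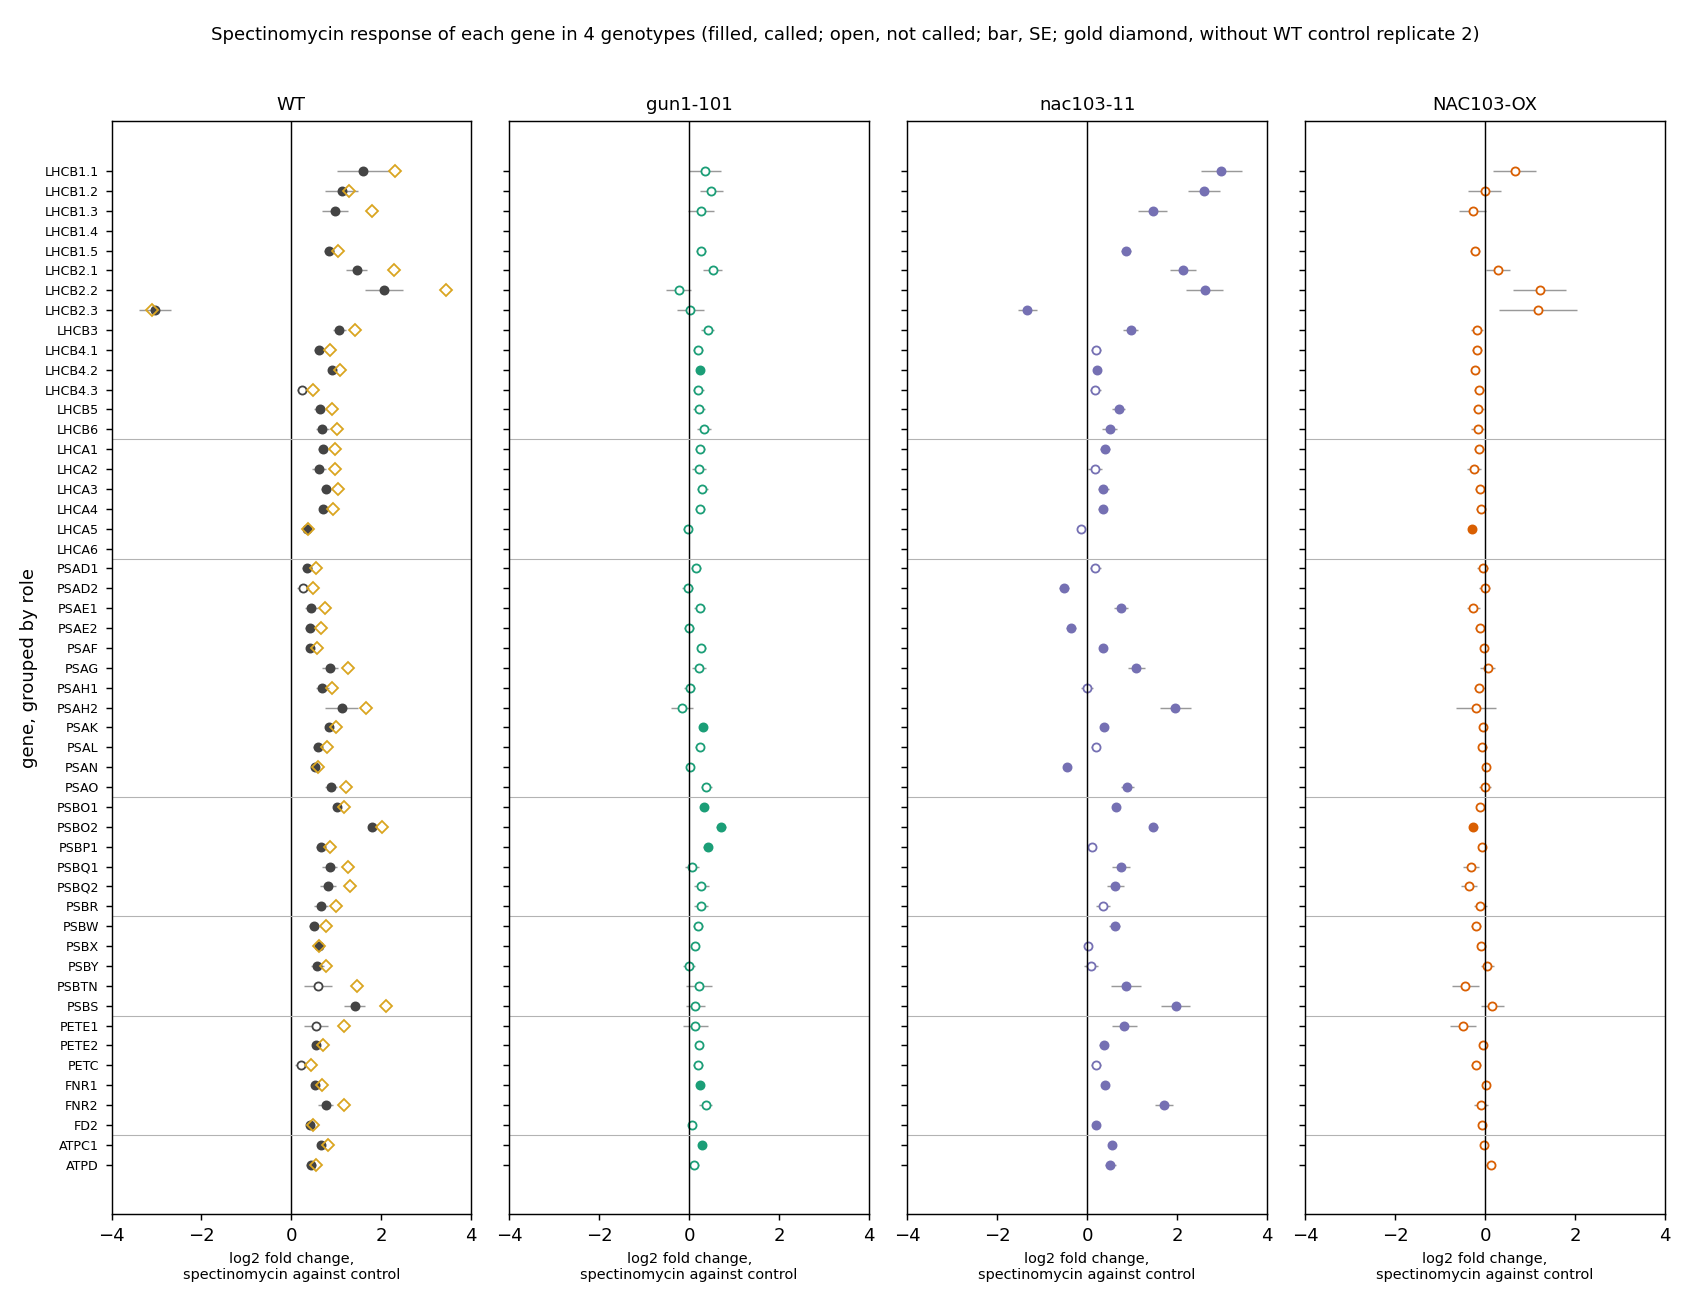
Log2 fold change of each gene on spectinomycin against control medium in the 4 genotypes, with its SE, filled where called and open where not called, and as gold diamonds the WT values without WT control replicate 2. Of 49 genes, 43 rose in WT, 7 in gun1-101, 33 in nac103-11 and 0 in NAC103-OX. In the same order 20.1%, 3.22%, 21.4% and 2.24% of all genes tested rose.

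The oxygen-evolving complex included PSBO2, whose rise had the lowest adjusted p of the 49 genes. PSBO1 and PSBO2 encode copies of its manganese-stabilizing protein. PSBO2 (AT3G50820) stood at 9.34, 14.7 and 10.5 CPM in the WT controls and at 41.5, 38.6 and 41.4 CPM on spectinomycin. Every spectinomycin library held more than every control library, and the log2 fold change was 1.80 ± 0.09 (SE; 3.48-fold, adjusted p = 1.77e-19), or 2.03 ± 0.09 without replicate 2. PSBO1 (AT5G66570) rose from 51, 69.4 and 50.2 CPM to 116, 114 and 115 CPM (log2 fold change 1.01 ± 0.07, adjusted p = 4.81e-12). PSBP1, the main copy of another subunit, rose from 30.04, 40.4 and 26.7 to 50.3, 50.6 and 53.3 CPM (0.66 ± 0.10, adjusted p = 8.35e-06). PSBQ1, PSBQ2 and PSBR rose as well, by 0.67 to 0.86 on the log2 scale, so that each of the 6 genes of the role was called higher.

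In the photosystem II antenna 11 of 13 genes tested rose. Without WT control replicate 2 LHCB4.3 rose as well (0.49 ± 0.12), and only LHCB2.3 did not rise. LHCB4.2, a copy of the minor antenna protein CP29, went from 15.2, 21.8 and 17.2 to 34.6, 34.8 and 33.3 CPM (log2 fold change 0.91 ± 0.08, adjusted p = 5.06e-12), with no overlap between the groups. LHCB3, a subunit of the LHCII trimer, went from 23.0, 41.7 and 24.3 to 63.1, 64.1 and 61.9 CPM (1.07 ± 0.14, adjusted p = 6.41e-06). LHCB1.5 went from 95.4, 137 and 93.2 to 174, 191 and 216 CPM (0.83 ± 0.11, adjusted p = 6.66e-06). For LHCB1.3 the groups overlapped, since replicate 2 at 130 CPM lay above the lowest spectinomycin library at 126 CPM. Its log2 fold change was 0.97 ± 0.29 (adjusted p = 0.0130) with replicate 2 and 1.79 ± 0.09 without it. LHCB1 and LHCB2 encode the main trimeric antenna protein, LHCII.

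The photosystem I antenna rose in each of the 5 genes tested. LHCA4 went from 76.9, 111 and 73.9 to 153, 140 and 137 CPM (log2 fold change 0.71 ± 0.10, adjusted p = 1.42e-05). LHCA1 and LHCA3 rose by 0.70 ± 0.11 and 0.78 ± 0.12, and none of the 3 overlapped between the groups. LHCA5, a minor antenna protein, was the least affected, at 0.36 ± 0.09 (adjusted p = 0.00106), with 12.3, 12.6 and 12.3 CPM in the controls and 16.5, 15.4 and 15.8 CPM on spectinomycin. For this gene replicate 2 was level with the other control libraries.

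Of the 12 photosystem I subunits 11 rose. PSAD2, the subunit not called, rose without WT control replicate 2 (0.48 ± 0.12). PSAK, a small peripheral subunit next to the antenna, went from 14.9, 18.0 and 12.8 to 29.9, 26.2 and 26.9 CPM (log2 fold change 0.85 ± 0.08, adjusted p = 2.66e-11). PSAN, a lumenal subunit near the plastocyanin docking site, went from 17, 18.9 and 16.8 to 27.6, 24.2 and 25.1 CPM (0.54 ± 0.08, adjusted p = 1.69e-07). PSAO, which takes part in state transitions, went from 7.75, 12.1 and 6.13 to 18.1, 15.8 and 15.2 CPM (0.89 ± 0.14, adjusted p = 3.42e-06). In none of the 3 did the groups overlap. Among the other photosystem II subunits PSBX went from 28.3, 30.9 and 34.0 to 49.4, 50.3 and 42.7 CPM (0.61 ± 0.08), and PSBS, the sensor of photoprotective quenching, from 0.916, 2.52 and 0.926 to 4.04, 3.83 and 4.14 CPM (1.41 ± 0.23). PSBW rose by 0.50 ± 0.11.

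Of the 6 electron carriers 4 rose, and both ATP synthase genes rose. FD2 went from 50.9, 63.6 and 60 to 74.2, 81.8 and 77.3 CPM (log2 fold change 0.42 ± 0.06, adjusted p = 1.87e-07). FNR1, a leaf-type ferredoxin-NADP reductase, rose by 0.54 ± 0.08, and PETE2, a plastocyanin, by 0.56 ± 0.09. ATPC1, the gamma subunit of the ATP synthase, went from 38.8, 52.0 and 41.3 to 69.7, 69.0 and 71.4 CPM (0.67 ± 0.06, adjusted p = 5.90e-12), and ATPD, the delta subunit, rose by 0.45 ± 0.11. PETC, the Rieske protein of the cytochrome complex, was not called at 0.21 ± 0.12, nor was PETE1 at 0.56 ± 0.27. Without WT control replicate 2 both rose, by 0.43 ± 0.10 and 1.18 ± 0.28.

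LHCB2.3 (AT3G27690) was the exception in WT. It stood at 1.71, 1.78 and 2.42 CPM in the control libraries and at 0.316, 0.286 and 0.107 CPM on spectinomycin, 8.17-fold lower (log2 fold change -3.03 ± 0.36, adjusted p = 2.31e-09), on 93 counts in the control group and 12 on spectinomycin. In the same libraries LHCB2.1 rose from 1.099, 3.44 and 1.07 to 5.24, 6.12 and 4.67 CPM (1.46 ± 0.24, adjusted p = 6.98e-06). LHCB2.2 rose from 0.122, 0.573 and 0.0713 to 1.45, 0.686 and 1.34 CPM (2.06 ± 0.42, adjusted p = 8.61e-05). Without WT control replicate 2 the log2 fold change was 2.29 ± 0.23 for LHCB2.1 and 3.45 ± 0.57 for LHCB2.2. Summed over the 3 copies, LHCB2 rose by 0.68 ± 0.16 (adjusted p = 7.61e-04). By their RefSeq coding sequences LHCB2.1 and LHCB2.2 were 96.6% identical and LHCB2.3 was 85.5% and 84.4% identical to them. Reads shared between close copies may have been split by the authors' counting. For that reason the values of LHCB2.1 and LHCB2.2 are uncertain. So are those of LHCB1.1, LHCB1.2 and LHCB1.3, which were 95.6% to 96.4% identical.

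The promoters of LHCB copies with contrasting values show how far their sequences differ. Each is the 300 bases before the RefSeq gene start, 5′ to 3′ on the gene's strand, from the TAIR10.1 assembly. The build behind the deposited counts is not given in the sources used here, and genes were linked by locus identifier. Capitals mark CACGTG (the G-box), GATAAG (the I-box), CCAATC, a motif reported at targets of GLK transcription factors, and AATATCT (the evening element), on either strand.
LHCB2.1 (chr2:1824481-1824780, minus strand): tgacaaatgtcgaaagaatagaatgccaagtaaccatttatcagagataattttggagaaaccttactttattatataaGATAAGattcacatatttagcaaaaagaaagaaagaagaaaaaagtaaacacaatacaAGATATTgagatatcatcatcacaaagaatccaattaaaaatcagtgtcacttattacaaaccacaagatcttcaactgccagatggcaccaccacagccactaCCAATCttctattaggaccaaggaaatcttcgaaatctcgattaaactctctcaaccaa
LHCB2.3 (chr3:10255606-10255905, plus strand): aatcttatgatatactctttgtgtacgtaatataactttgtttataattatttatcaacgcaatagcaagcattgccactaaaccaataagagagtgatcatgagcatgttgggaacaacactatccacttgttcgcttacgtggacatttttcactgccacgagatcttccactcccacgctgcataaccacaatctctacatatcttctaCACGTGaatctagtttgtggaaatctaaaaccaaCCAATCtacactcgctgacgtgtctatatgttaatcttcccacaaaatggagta
LHCB1.1 (chr1:10475970-10476269, minus strand): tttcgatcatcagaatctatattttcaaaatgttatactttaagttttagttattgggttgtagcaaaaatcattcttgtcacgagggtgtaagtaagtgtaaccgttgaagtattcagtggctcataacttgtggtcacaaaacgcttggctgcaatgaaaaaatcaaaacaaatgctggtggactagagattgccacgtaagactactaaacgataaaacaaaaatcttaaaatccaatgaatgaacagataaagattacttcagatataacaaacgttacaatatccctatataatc
LHCB1.3 (chr1:10477585-10477884, plus strand): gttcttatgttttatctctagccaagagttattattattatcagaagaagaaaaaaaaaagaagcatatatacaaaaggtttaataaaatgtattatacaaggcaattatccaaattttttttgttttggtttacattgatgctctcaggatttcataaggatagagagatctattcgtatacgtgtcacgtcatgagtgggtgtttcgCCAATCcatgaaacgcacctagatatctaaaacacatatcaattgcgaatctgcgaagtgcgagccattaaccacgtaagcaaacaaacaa

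LHCB2.3 held a G-box 88 bases before its gene start and a CCAATC 54 bases before it, and LHCB2.1 an I-box, a CCAATC and an evening element. LHCB1.3 held a CCAATC 91 bases before its start, and LHCB1.1 held none of the 4 motifs in this window. Across the 51 promoters the G-box was in 11 (21.6%), the I-box in 12 (23.5%), CCAATC in 17 (33.3%) and the evening element in 7 (13.7%). In 27438 nuclear protein-coding promoters of the same length they were in 7.09%, 14.5%, 12.2% and 11.8%. These are matches of letters and do not show that a factor binds there.

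In gun1-101, light-reaction transcripts were already high on control medium. Of the 49 genes 39 were higher than in WT, none was lower and 10 were not called, with 24.7% of all genes tested higher and 15.8% lower. The median difference was 0.61 on the log2 scale, against 0.01 for all genes, and 0.81 without WT control replicate 2, with 46 higher and 1 lower. With raw library sizes in place of TMM the median was 0.42, against -0.18 for all genes. Of the 14 root tissue markers none was higher in gun1-101 and 6 were lower (SCR, SMB, GL2, WER, PIN2 and COBL9, by 0.24 to 0.71 on the log2 scale), and 8 were lower without replicate 2. In nac103-11 and NAC103-OX on control medium 6 and 2 of these markers were lower and none higher, or 6 in each without replicate 2. Of all genes 20.1% and 22.6% were lower there, or 20% and 22.7% without replicate 2. The part of these markers in the results was not tested. In 32 genes every gun1-101 library lay above every WT library and in 1 below, against 27% and 19% of all genes. The 12 photosystem I subunits and the 5 other photosystem II subunits were each higher. PSAL, a subunit of the photosystem I docking site for the antenna, stood at 27.1, 27.7 and 26.8 CPM against 12.1, 15.7 and 9.69 in WT (log2 difference 1.105 ± 0.11, adjusted p = 5.30e-11). The largest differences were in copies with very low levels in WT. Summed over all copies, LHCB2 was higher by 0.94 ± 0.17, LHCB1 by 0.79 ± 0.17 and PSAH by 1.07 ± 0.13. LHCB2.2 stood at 2.27, 1.93 and 1.46 CPM (2.78 ± 0.40, or 4.17 ± 0.53 without replicate 2), LHCB1.1 at 1.35, 0.670 and 0.773 CPM (2.46 ± 0.53, or 3.17 ± 0.67), and PSAH2 at 1.70, 2.01 and 2.15 CPM against 0.122, 0.688 and 0.499 CPM in WT (2.12 ± 0.33, adjusted p = 7.97e-07).

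PSBO2 and ATPC1 did not share the high control level of gun1-101. PSBO2 stood at 14.0, 13.2 and 13.9 CPM there, within the range of the WT controls (log2 difference 0.24 ± 0.11, adjusted p = 0.0848), though it was called at 0.47 ± 0.11 without WT control replicate 2. ATPC1 stood at 40.0, 44.2 and 43.0 CPM (-0.06 ± 0.07, adjusted p = 0.521), LHCA5 at 12.8, 12.1 and 11.8 CPM (-0.02 ± 0.10) and FNR1 at 38.0, 37.0 and 33.7 CPM (0.09 ± 0.08). Without replicate 2, ATPC1 and LHCA5 were again not called and FNR1 was called higher (0.25 ± 0.07, adjusted p = 0.00511).

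In gun1-101 the rise on spectinomycin was small, and the count of called genes depended on the fit. Of the 49 genes 7 rose and 0 fell, with 3.22% of all genes tested higher and 7.96% lower, and the median was 0.22. The 7 were PSBO2, PSBO1, PSBP1, ATPC1, PSAK, LHCB4.2 and FNR1. PSBO2 went from 14.0, 13.2 and 13.9 to 23.4, 21.5 and 22.5 CPM (log2 fold change 0.71 ± 0.10, adjusted p = 2.89e-06) and ATPC1 from 40.0, 44.2 and 43.0 to 52.3, 50.1 and 51.5 CPM (0.28 ± 0.07, adjusted p = 0.00432). In 32 of the 49 genes every spectinomycin library nevertheless lay above every control library, against 12.3% of all genes, and in none did they lie below, against 17.3%. With only these 2 groups in the fit 26 were called, and without gun1-101 control replicate 1 or replicate 3 the count was 4. No share of all genes is given for these fits, so these counts cannot be set against it.

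The log2 response of gun1-101 minus that of WT was called below 0 for 24 of the 49 genes and above 0 for LHCB2.3, with 24 not called, while it was called above 0 for 13.7% of all genes and below 0 for 10.8%. LHCB2.3, which fell in WT, was not called in gun1-101 (0.03 ± 0.30). When WT control replicate 2 was left out, 44 were called below 0 and 1 above, against 12.8% and 14.8% of all genes, and without WT control replicate 1 the 2 counts were 14 and 1. The median difference was -0.43 with all libraries. PSBO2 had a difference of -1.09 ± 0.14 (adjusted p = 6.92e-08), PSBO1 of -0.68 ± 0.11 (adjusted p = 1.20e-05) and LHCB2.2 of -2.29 ± 0.51 (adjusted p = 5.38e-04), or -3.68 ± 0.64 without WT control replicate 2. Summed over its 3 copies, LHCB2.3 included, LHCB2 had a difference of -0.37 ± 0.22, which was not called. Among the genes not called were LHCB1.3 and the minor antenna genes LHCB4.1, LHCB5 and LHCB6.

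On spectinomycin itself gun1-101 and WT differed gene by gene. Of the 49 genes 18 were higher in gun1-101 and 5 lower, with 27.7% and 29.3% of all genes, and the libraries did not overlap for 25 higher and 7 lower, against 30% and 32.7%. The 5 lower were PSBO2, PSBO1, ATPC1, LHCA5 and FNR1. PSBO2 stood at 23.4, 21.5 and 22.5 CPM against 41.5, 38.6 and 41.4 in WT (log2 difference -0.85 ± 0.08, adjusted p = 2.76e-11). Of the photosystem I subunits 9 of 12 were higher, PSAL among them at 30.2, 34.8 and 31.1 CPM against 18.9, 19.6 and 18.5 (0.75 ± 0.10). This split depended on scaling. With raw library sizes in place of TMM the median of all genes in this comparison moved by -0.23, and 8 of the 49 were called higher and 12 lower. Without gun1-101 spectinomycin replicate 2 the counts were 12 higher and 3 lower. No share of all genes is given for either setting. By deposited TPM the light-reaction genes summed to 2697 to 2743 in gun1-101 and 2938 to 3004 in WT on spectinomycin, the opposite order to the summed CPM.

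In NAC103-OX, light-reaction transcripts were high without spectinomycin. On control medium 36 of the 49 genes were higher than in WT, LHCB2.3 was lower and 12 were not called, with 22.8% of all genes tested higher and 22.6% lower. The libraries did not overlap for 30 higher and 1 lower gene, against 24.7% and 24.5%. The median was 0.59, and 0.85 without WT control replicate 2, with 44 higher and 1 lower. PSBO2 stood at 63.6, 60.8 and 54.6 CPM against 9.34, 14.7 and 10.5 in WT, 5.13-fold higher (log2 difference 2.36 ± 0.09, adjusted p = 8.98e-24), and above the 38.6 to 41.5 CPM of WT on spectinomycin. PSBO1 stood at 139, 131 and 138 CPM (1.25 ± 0.07, adjusted p = 3.53e-14), PSAK at 33.4, 32.2 and 33.0 CPM (1.097 ± 0.08, adjusted p = 7.63e-15) and ATPC1 at 75.0, 74.1 and 79.3 CPM (0.79 ± 0.06, adjusted p = 3.74e-14). None of these 4 genes overlapped with WT. LHCB1.1, LHCB1.2, LHCB2.1, LHCB2.2 and PSAH2, each higher in gun1-101, were not called here. PSAH2 stood at 0.311, 0.659 and 0.389 CPM (0.04 ± 0.44) and LHCB2.2 at 0.186, 0.198 and 0.130 CPM (-0.64 ± 0.66).

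LHCB1.3 gave different answers with and without WT control replicate 2. It stood at 77.3, 72.6 and 61.4 CPM in NAC103-OX, between 130 CPM in that replicate and 40.6 and 39.3 CPM in the other WT controls. The log2 difference was -0.00 ± 0.30 (adjusted p = 0.993) with replicate 2 and 0.82 ± 0.10 (adjusted p = 4.20e-07) without it. LHCB2.3 was nearly absent, at 0, 0.0659 and 0.130 CPM, or 3 counts over the group against 93 in WT. The WT level was 30.3 times that of NAC103-OX, with a 95% interval of 10 to 149 (exact Clopper-Pearson, counting error only).

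**Figure D4:**
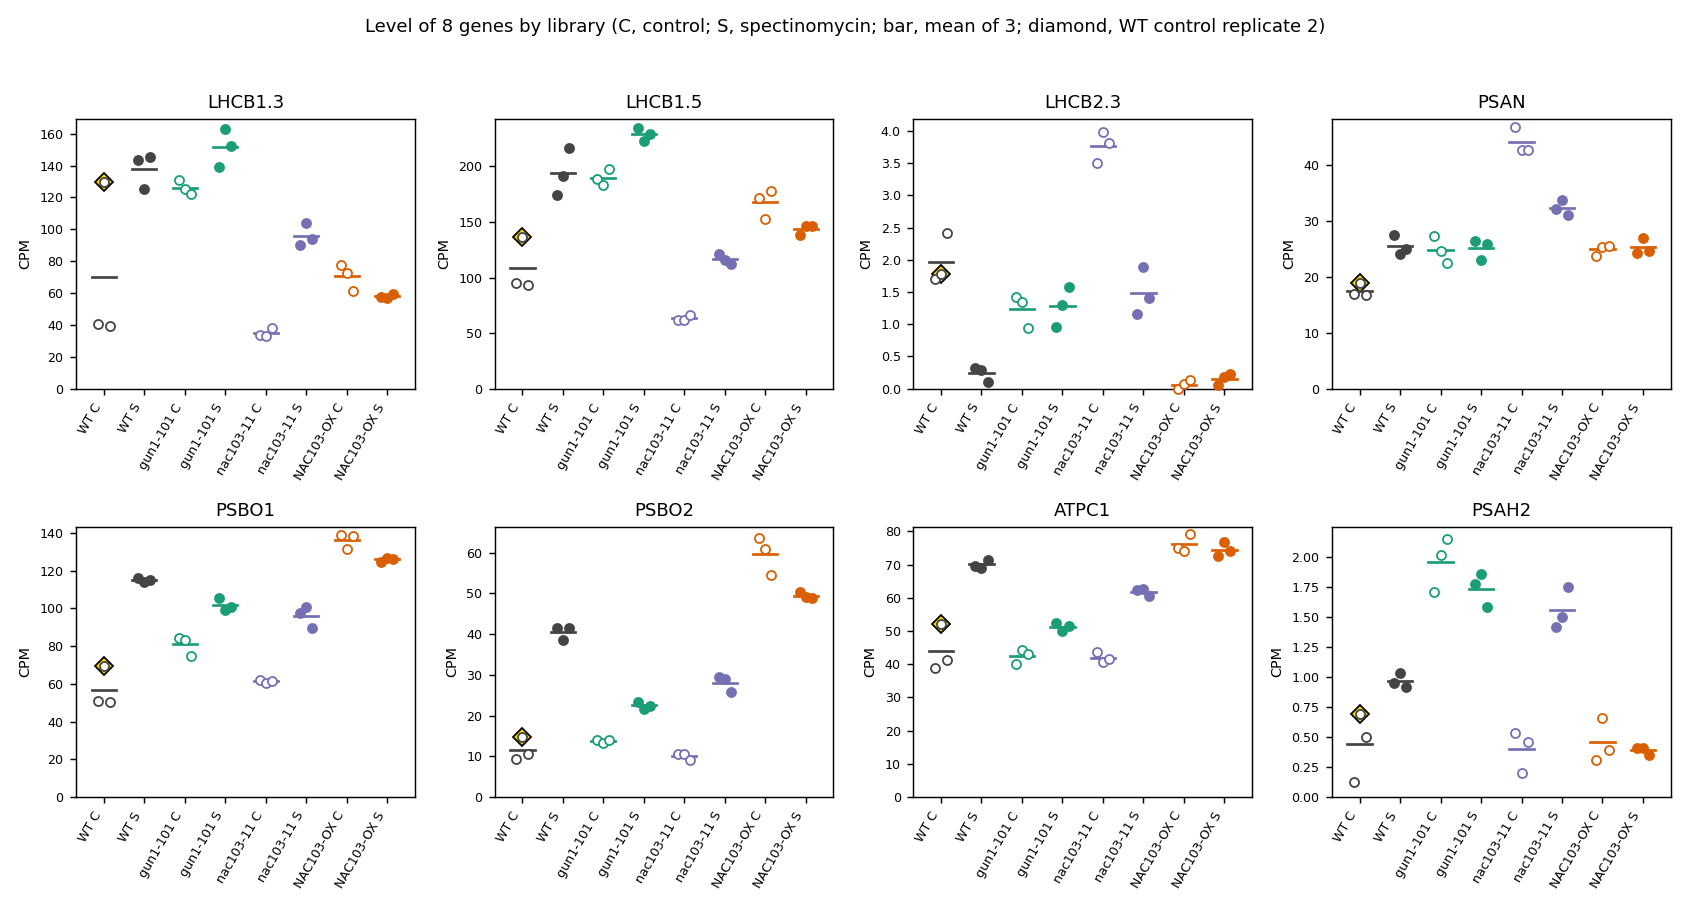
CPM of 8 genes in the 24 libraries, with open points for control medium (C), filled points for spectinomycin (S), a bar for the mean of 3 libraries and a gold diamond for WT control replicate 2. PSBO2 is highest in NAC103-OX control at 54.6 to 63.6 CPM, PSAN in nac103-11 control at 42.7 to 46.8 CPM, PSAH2 in gun1-101 control at 1.70 to 2.15 CPM, and LHCB2.3 in nac103-11 control at 3.50 to 3.99 CPM.

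In NAC103-OX few genes of any kind were called on spectinomycin, light-reaction genes included. None of the 49 rose by edgeR's quasi-likelihood test or by DESeq2, and 2 fell, with 2.24% of all genes tested higher and 2.82% lower, and the median was -0.10. The libraries did not overlap for 1 higher and 14 lower genes, against 12.2% and 13.4% of all genes. PSBO2 went from 63.6, 60.8 and 54.6 to 50.4, 49.2 and 48.7 CPM (log2 fold change -0.27 ± 0.07, adjusted p = 0.0206) and LHCA5 from 19.1, 20.6 and 21.3 to 17.5, 15.6 and 16.8 CPM (-0.29 ± 0.08, adjusted p = 0.0310), with no overlap in either. Both calls were lost without NAC103-OX control replicate 2, spectinomycin replicate 2 or spectinomycin replicate 3, and 1 was lost without control replicate 1 or 3. With only these 2 groups in the fit 7 genes fell, for which no share of all genes is given.

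The log2 response of NAC103-OX minus that of WT was called below 0 for 38 of the 49 genes and above 0 for LHCB2.3, with 16.4% of all genes above and 15.1% below. The response of LHCB2.3 in NAC103-OX was not called, on 3 and 8 counts. Leaving out WT control replicate 2, 45 were called below 0 and 1 above, against 16.9% and 17.5%. The median difference was -0.81. It was -2.07 ± 0.12 for PSBO2 (adjusted p = 1.54e-17), -1.14 ± 0.12 for LHCB4.2 (adjusted p = 2.00e-10) and -1.12 ± 0.10 for PSBO1 (adjusted p = 7.61e-10). Each of the 6 genes of the oxygen-evolving complex and each of the 5 photosystem I antenna genes tested had a difference called below 0. On spectinomycin 1 of the 49 genes, PSBO2, was higher in NAC103-OX than in WT and 13 were lower, with 8.45% and 8.32% of all genes, and 1 and 8 without WT spectinomycin replicate 3 or NAC103-OX spectinomycin replicate 2. Libraries did not overlap for 8 higher and 19 lower genes, against 16.8% and 16.6%. Of the 13 lower, 7 belonged to the photosystem II antenna, among them LHCB1.3 at 57.8, 57.0 and 59.6 CPM against 143, 126 and 146 CPM (log2 difference -1.25 ± 0.29, adjusted p = 0.00684).

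In nac103-11, control levels were mixed and spectinomycin raised most genes. On control medium 13 of the 49 genes were higher than in WT, 9 were lower and 27 were not called, with 23.2% and 20.1% of all genes, and the median was -0.05. The libraries did not overlap for 8 higher and 7 lower genes, against 25.3% and 23% of all genes. Without WT control replicate 2, 20 were higher and 2 lower, with a median of 0.31. With raw library sizes 9 were higher and 15 lower, and without nac103-11 control replicate 1 10 were higher and 4 lower. Shares of all genes are not given for these 2 settings. Photosystem II antenna genes made 5 of the 9 lower, and without WT control replicate 2 the 2 lower were LHCB1.5 and LHCB3. LHCB1.5 stood at 62.2, 62.3 and 66.6 CPM against 95.4, 137 and 93.2 in WT (log2 difference -0.77 ± 0.12, adjusted p = 3.76e-05, and -0.57 ± 0.07 without replicate 2). LHCB3 stood at 18.7, 18.7 and 19.6 CPM (-0.65 ± 0.17, and -0.31 ± 0.08 without replicate 2). LHCB1.3, at 33.4, 33.0 and 38.1 CPM, was called lower (-1.02 ± 0.33) with replicate 2 and not without it (-0.20 ± 0.11, adjusted p = 0.144).

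Of the 12 photosystem I subunits 6 were higher and PSAO was lower in nac103-11 control, and of the 5 photosystem I antenna genes tested LHCA5 was higher. These calls are with all libraries, and PSAO was not called lower without WT control replicate 2. With all libraries PSAO stood at 8.66 ± 3.09 CPM (SD) in WT control and 6.52 ± 0.35 CPM in nac103-11 control. PSAG, PSAD1 and PSAE1 were not called, at -0.46, -0.11 and -0.20. PSAN (AT5G64040) stood at 46.8, 42.8 and 42.7 CPM against 17, 18.9 and 16.8 in WT, 2.50-fold higher (log2 difference 1.32 ± 0.07, adjusted p = 5.63e-19). PSAD2, a copy of the ferredoxin-docking subunit, stood at 19.6, 22.9 and 18.4 CPM against 8.36, 13.2 and 9.69 (0.95 ± 0.12), and PSAE2, a copy of a neighbouring stromal subunit, at 21.7, 20.7 and 21.2 CPM against 9.59, 16 and 11.54 (0.77 ± 0.11). LHCA5 stood at 20.3, 18.5 and 20.6 CPM (0.68 ± 0.09). None of the 4 overlapped with WT. In the RefSeq gene order of TAIR10.1, PSAN lies near NAC103 itself, with 1 gene, ERS, between them. ERS was not called in nac103-11 against WT (-0.02 ± 0.06, adjusted p = 0.828), and AT5G64030, on the far side of PSAN, was lower (-0.46 ± 0.06, adjusted p = 1.31e-08). Whether the nac103-11 lesion acts on PSAN through its position was not tested.

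On spectinomycin 33 of the 49 genes rose in nac103-11, 4 fell and 12 were not called, with 21.4% and 23.4% of all genes tested, and the median was 0.41. The libraries did not overlap for 37 higher and 4 lower genes, against 27% and 27.2%. PSBO2 went from 10.7, 10.5 and 9.19 to 29.4, 29.0 and 25.9 CPM (log2 fold change 1.48 ± 0.10, adjusted p = 1.31e-15). FNR2, another leaf-type reductase, went from 1.83, 2.23 and 1.101 to 5.53, 5.49 and 5.74 CPM (1.71 ± 0.20, adjusted p = 2.02e-09). The largest log2 fold changes were in copies of low level, with LHCB1.1 at 2.98 ± 0.46, LHCB2.2 at 2.62 ± 0.41 and LHCB1.2 at 2.61 ± 0.36. Summed over all copies, LHCB1 rose by 1.14 ± 0.18 and LHCB2 by 0.61 ± 0.16. PSAN fell from 46.8, 42.8 and 42.7 to 32.1, 33.8 and 31.1 CPM (-0.45 ± 0.07, adjusted p = 4.43e-07), PSAD2 fell by 0.51 ± 0.11, PSAE2 by 0.36 ± 0.10 and LHCB2.3 by 1.33 ± 0.21 on the log2 scale. LHCB2.3 went from 3.50, 3.99 and 3.82 to 1.16, 1.88 and 1.41 CPM.

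The log2 response of nac103-11 minus that of WT was called above 0 for 2 of the 49 genes, below 0 for 10 and not called for 37, with 6.2% of all genes above and 5.56% below. With WT control replicate 2 left out, 1 was called above 0 and 27 below, against 8.66% and 8.02%. FNR2, which rose in both genotypes, had a difference of 0.94 ± 0.27 (adjusted p = 0.0173), not called without replicate 2 (0.53 ± 0.27, adjusted p = 0.182). LHCB2.3, which fell in both and by less in nac103-11, had a difference of 1.70 ± 0.45 (adjusted p = 0.00847). PSAN had the lowest adjusted p (-0.98 ± 0.10, adjusted p = 6.79e-10), followed by LHCB4.2 (-0.69 ± 0.12, adjusted p = 4.52e-05). On spectinomycin 4 genes were higher in nac103-11 than in WT and 13 lower, with 15.5% and 11.1% of all genes, and 4 and 7 without nac103-11 spectinomycin replicate 3. Here the libraries did not overlap for 5 higher and 23 lower genes, against 20.9% and 19%. PSBO2 was among the lower (-0.53 ± 0.08), and LHCB2.3 among the higher (2.65 ± 0.38). The responses minus that of WT share the same WT libraries, as do the comparisons with WT on each medium, and no overlap between them is given.

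**Figure D5:**
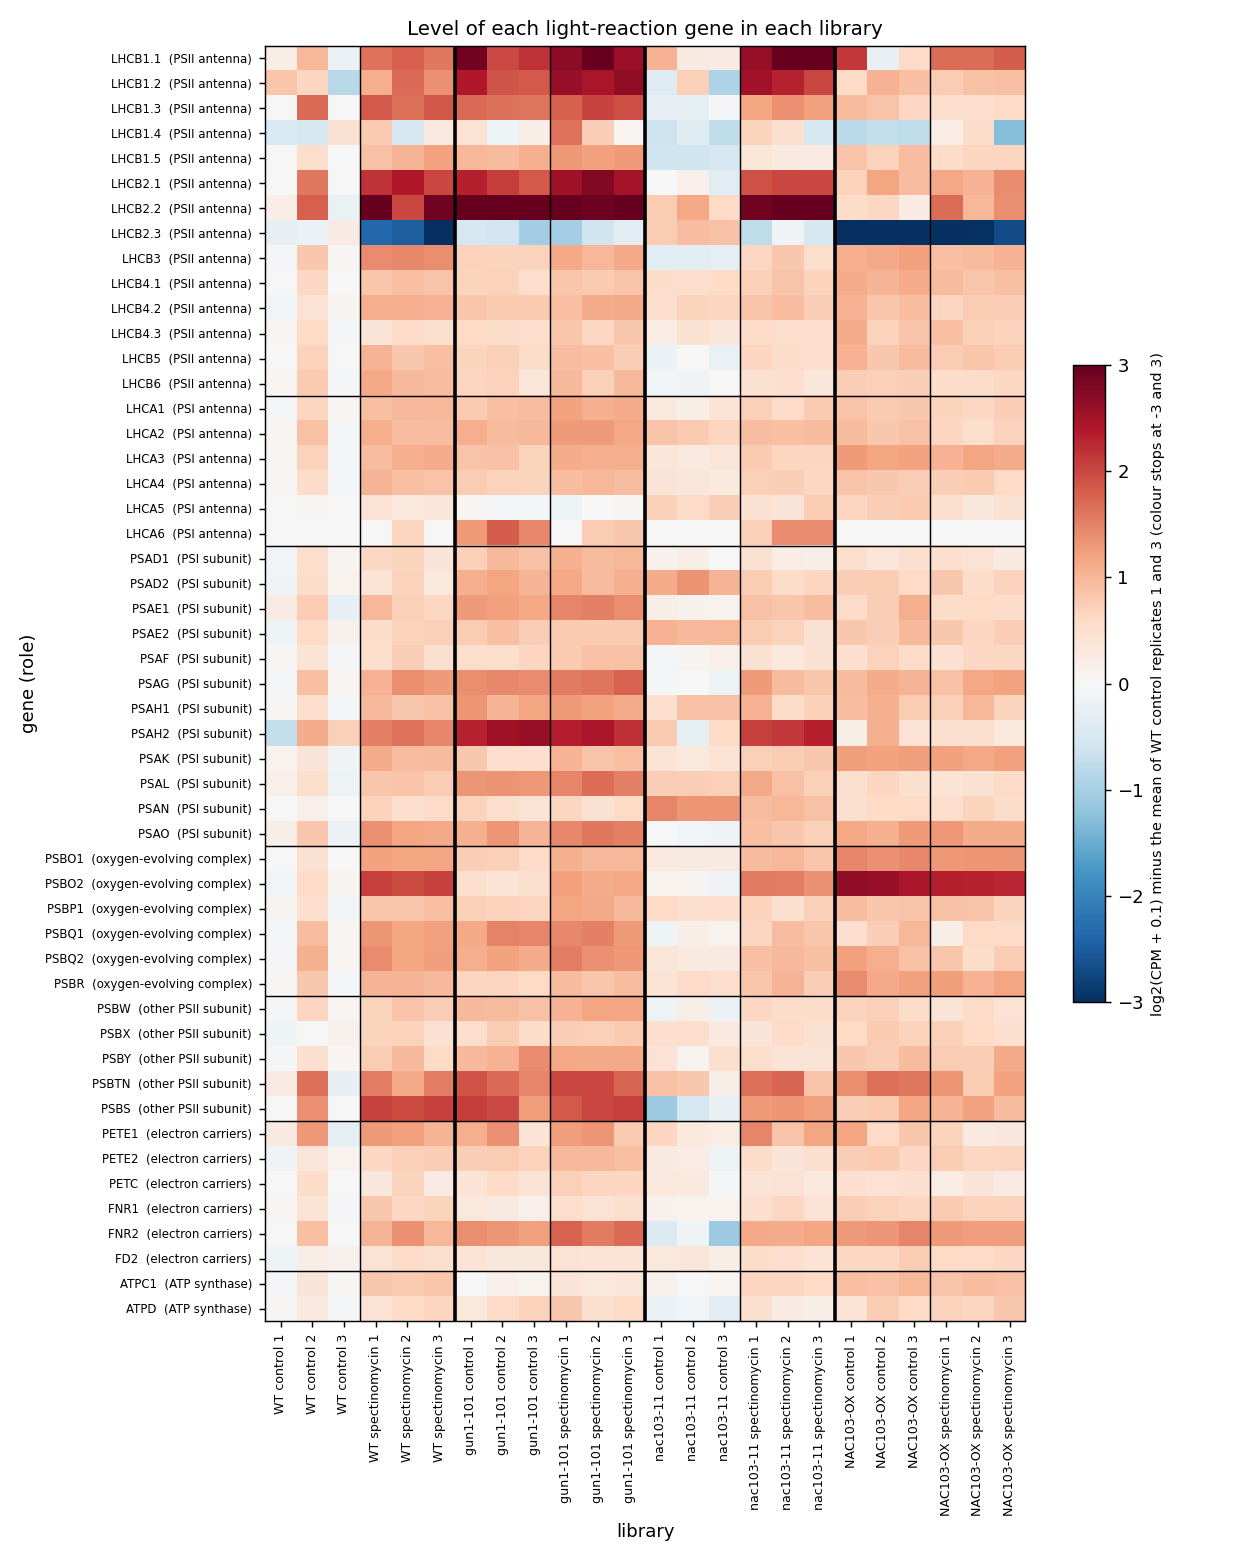
Level of each of the 51 genes (rows, grouped by role) in the 24 libraries (columns), as log2(CPM + 0.1) minus the mean of WT control replicates 1 and 3. WT control replicate 2 is above the other WT control libraries for 46 of the 49 genes tested, and LHCB2.3 is at the low end of the colour scale, which stops at -3 and 3, in the WT spectinomycin and NAC103-OX libraries.

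Other genes of photosynthesis followed in part. The shares of all genes that rose and fell in WT were 20.1% and 20.4%, as above. Of 20 Calvin cycle genes tested 14 rose on spectinomycin and 1 fell, or 17 and 2 without WT control replicate 2. Of 28 genes of thylakoid assembly and regulation 17 rose and none fell (20 and 1 without that library), led by CURT1A, which shapes grana margins (log2 fold change 0.56 ± 0.07, adjusted p = 3.13e-09), and PGR5 of cyclic electron flow (0.72 ± 0.11). Of 16 regulators 10 rose and none fell (12 and 0), among them GUN5, a subunit of magnesium chelatase (0.66 ± 0.06, adjusted p = 1.57e-13), and PIF4 (1.62 ± 0.22). The list was not split into regulators that raise and that lower photosynthesis genes, so these counts give no direction for those genes. Of 8 photorespiration genes 6 rose (7 without that library), led by GDCT (0.49 ± 0.05), and of 3 NDH complex genes 2 rose (1 without it), NDHS (0.42 ± 0.09) and PNSB1 (0.97 ± 0.34).

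In the WT response the 4 genes of the non-photosynthetic (root-type) ferredoxin system moved against the leaf-type FD2 and FNR1. NIR1, the nitrite reductase that takes electrons from ferredoxin, fell in WT from 89.4, 85.0 and 93.3 to 41.1, 40.0 and 38.0 CPM (log2 fold change -1.17 ± 0.06, adjusted p = 1.09e-21). FD3, the root ferredoxin, fell by 0.45 ± 0.06, RFNR1 by 0.29 ± 0.06 and RFNR2 by 0.17 ± 0.06, while FD2 and FNR1 rose. In NAC103-OX on control medium each of the 4 was lower than in WT, NIR1 at 31.0, 30.5 and 28.9 CPM (-1.56 ± 0.06, adjusted p = 1.34e-25), and none was called in the response of NAC103-OX. In nac103-11 each of the 4 was also lower than in WT on control medium, by 0.16 to 0.36, and 3 fell on spectinomycin. Of all genes tested, 22.6% were lower in NAC103-OX and 20.1% in nac103-11 on control medium, and 23.4% fell in nac103-11. In gun1-101 control NIR1 (-0.76 ± 0.06, adjusted p = 2.19e-15) and RFNR2 (-0.53 ± 0.06) were lower than in WT, and none of the 4 was called in the response. On spectinomycin FD3 (0.41 ± 0.06), RFNR1 (0.41 ± 0.06) and NIR1 (0.35 ± 0.06) were higher in gun1-101 than in WT, and RFNR2 was lower (-0.30 ± 0.06).

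The Rubisco small-subunit copies RBCS1B, RBCS2B and RBCS3B had the largest log2 fold changes of the Calvin cycle list in WT (3.83 ± 0.44, 3.69 ± 0.70 and 2.81 ± 0.28) and in nac103-11 on spectinomycin. RBCS3B stood at 15.1, 15.7 and 11.4 CPM in gun1-101 control against 0.122, 0.860 and 0.428 CPM in WT (log2 difference 4.85 ± 0.22, adjusted p = 1.64e-22), and it rose in nac103-11 from 0.228, 0.271 and 0.518 to 11.3, 10.8 and 9.96 CPM (4.92 ± 0.25). In NAC103-OX it stood at 0.994, 0.857 and 0.907 CPM on control medium (0.93 ± 0.39 against WT, adjusted p = 0.0491). Against WT on control medium, 6 of the 28 assembly and regulation genes were higher in gun1-101 and 1 lower, against 24.7% and 15.8% of all genes, and 10 and 1 without WT control replicate 2. In NAC103-OX 21 were higher and 0 lower, against 22.8% and 22.6%, and 24 and 1 without that library. Of the 16 regulators 1 was higher and 4 lower in gun1-101, GUN1 itself among the lower, or 4 and 3 without that library, and 11 were higher and 0 lower in NAC103-OX either way. The difference between those genotypes was not tested.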

How the data were processed

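Poly(A) RNA of 24 root-tip libraries, 3 in each of 8 genotype-by-medium groups, was measured by RNA sequencing. The authors deposited expected counts and TPM per gene, made with RSEM 1.3.1 per the submitters' processing notes. The aligner settings, annotation and build are not given in the sources used here. Of the expected counts 98.3% were whole, and they were rounded to whole numbers.

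Counts were fitted with edgeR 4.0.16 (R 4.3.3, limma 3.58.1) by its quasi-likelihood test with TMM scaling, robust dispersion and 1 mean per group, over all 24 libraries, with Benjamini-Hochberg adjustment of the p-values. The filterByExpr minimums were 10 for the count and 15 for the total, which left 19567 of 24497 genes. Calls are at an adjusted p under 0.05. CPM use TMM library sizes, and TPM served for levels between genes. Total counts were 13012580 to 17411876 per library, and intervals or floors given cover only counting error.

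The fit was tested on simulated counts with 19409 genes. In the WT response it recovered 14, 43, 49 and 49 of 50 genes changed by 1.2, 1.5, 2 and 4 times, with 2 false calls. Apart from the genes changed in WT spectinomycin, every simulated library shared 1 mean level per gene, so none deviated as WT control replicate 2 did. The simulation therefore does not show how the fit behaves with such a library, or where many genes differ between groups.

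The light-reaction genes and the other gene lists were chosen with earlier results of these data known. Any of the 51 could be named. Values in every library are printed for the 3 called genes of lowest p per role in the WT response and for genes that moved against their role, and from each list up to 3 called genes of lowest p per response are named. Of the genes called only in a difference between responses, most are given as counts, a departure from the rule. LHCB1.5, LHCB1.3, PSAL, PSAH2 and RBCS3B in gun1-101 control were singled out after their values were seen. Alternatives were DESeq2 1.42.0, RLE size factors, no filter, a replicate block, fits of the compared groups alone, close copies summed, and each library of the compared groups left out. Raw library sizes were added after seeing the data. Shares of all genes are given only for the main fit and the fit without WT control replicate 2.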

Additional observations from a re-analysis of the deposited data

Results flagged for a closer look

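The spectinomycin response of each altered genotype was compared with that of WT by a test of the difference (edgeR's quasi-likelihood test), and 25, 12 and 39 of the 49 light-reaction genes differed in gun1-101, nac103-11 and NAC103-OX. These comparisons share the WT libraries, and the counts were 45, 28 and 46 without WT control replicate 2.

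For gun1-101 the log2 difference was 3.06 for LHCB2.3, -1.09 for PSBO2, -0.68 for PSBO1, -0.67 for LHCB4.2, -0.53 for PSAN and -0.39 for ATPC1. For nac103-11 it was 1.70 for LHCB2.3, 0.94 for FNR2, -0.98 for PSAN, -0.69 for LHCB4.2 and -0.37 for PSBO1. For NAC103-OX it was 4.21 for LHCB2.3, -2.07 for PSBO2, -1.14 for LHCB4.2, -1.12 for PSBO1, -0.85 for FNR2, -0.70 for ATPC1 and -0.52 for PSAN. LHCB2.3 had 12 counts over the WT spectinomycin libraries and 3 over the NAC103-OX control libraries, so its differences rest on few counts. LHCB2.3 fell in WT, so a difference above 0 is a smaller fall or none. Without WT control replicate 2 the difference of FNR2 in nac103-11 was 0.53 and not called (adjusted p = 0.182).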

How the results depend on the processing

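Counts of light-reaction genes called, of 49, stayed within 1.5 times of the reported ones in all 13 comparisons under DESeq2, RLE size factors, no filter and the replicate block. With only the compared groups in the fit, the counts were 28 for the WT response, 26 for gun1-101, 7 for NAC103-OX, 14 for the gun1-101 response minus that of WT, 12 for nac103-11 against WT on control medium, and 28 and 22 for nac103-11 and NAC103-OX against WT on spectinomycin. With close copies summed, 1 was called in the NAC103-OX response. With raw library sizes the counts were 12 in the gun1-101 response, 1 in the NAC103-OX response and 27 for nac103-11 against WT on spectinomycin. No share of all genes is given for these settings, and the cause of these moves was not tested.

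With 1 library left out at a time the counts ran from 38 to 49 for the WT response, 4 to 5 for gun1-101, 33 to 38 for nac103-11 and 0 to 2 for NAC103-OX. They ran from 15 to 45, 11 to 28 and 36 to 46 when the WT response was subtracted, for gun1-101, nac103-11 and NAC103-OX in turn. Against WT they ran from 34 to 47, 14 to 23 and 32 to 45 on control medium and from 15 to 21, 11 to 16 and 9 to 10 on spectinomycin, in the same order. The counts of 15 and 45 came without WT control replicates 1 and 2, and that of 28 without WT control replicate 2. LHCB1.3 in NAC103-OX against WT on control medium changed sign, to 0.82 (adjusted p = 4.20e-07, edgeR), without WT control replicate 2, and its leave-one-out values ran from -0.28 to 0.82. Over single genes 4265 of 4704 leave-one-out values kept their direction and their side of the threshold.

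Replicate numbers are shared between groups. No shared deviation of same-numbered libraries was seen, with correlations of -0.0629 to 0.0694. These correlations cannot show whether such libraries were grown or prepared together, and the main fit did not pair them. With the replicate block the counts were 44, 9, 37 and 2 for the responses of WT, gun1-101, nac103-11 and NAC103-OX, 26, 12 and 41 for the responses minus that of WT, 40, 23 and 39 against WT on control medium and 25, 18 and 15 on spectinomycin. Depth limits the copies of a few counts per library, such as LHCB1.1, LHCB2.2, LHCB2.3 and PSAH2.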
